A study of Mus musculus with 2 samples.

Results

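The blood stem cell transcription factor heptad is a group of 7 mouse genes, Gata2, Tal1, Lmo2, Lyl1, Runx1, Erg and Fli1, and it was read by gene symbol from single-cell counts of 28206 features. All 7 had a row in both libraries, and all 7 were detected. The cells came from lineage-depleted mouse bone marrow and were captured on the inDrops platform, which marks each captured transcript molecule with a droplet barcode and a unique molecular identifier (UMI). 1 pool was made from 2 sources, and 2 aliquots of that pool, called aliquot 1 and aliquot 2, were sequenced as separate libraries. The first source was live cells sorted on GFP fluorescence alone (DAPI-GFP+) from Mds1-GFP/+ Flt3-Cre mice, and the second was long-term hematopoietic stem cells (LT-HSCs) of wild-type mice, sorted as DAPI-Lin-cKit+Sca+CD48-CD150+. The reporter cassette sits between loxP sites, so mouse line, sort and reporter go together, and a cell without a reporter UMI can come from either source. Per the labels, the wild-type cells were added to make good libraries possible. The sources used here give neither the age of the mice nor how many were pooled. With a single pool (n = 1) the aliquots are technical repeats, so no test was made and no p-value is given.

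The members belong to a few protein families. Gata2 binds GATA motifs, Tal1 and Lyl1 are closely related basic helix-loop-helix factors that bind E-boxes with a partner, Runx1 is a core binding factor subunit, and Erg and Fli1 are closely related ETS factors. Lmo2 does not bind DNA itself and bridges Tal1 or Lyl1 to GATA factors in a complex that also holds Ldb1. The proteins have been found together at enhancers of blood stem and progenitor cells, and several of them are needed for the formation or upkeep of blood stem cells. In red cell and megakaryocyte maturation Gata1 takes over many sites from Gata2, and Fli1 and Klf1 are known as opposed factors of the megakaryocyte and red cell lineages.

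A barcode was kept as a cell from 500 UMIs upward, the reporter feature not being counted, and if mitochondrial transcripts gave no more than 20% of them. This gave 3402 cells with 5668067 UMIs, 1574 cells with a median of 946.5 UMIs in aliquot 1 and 1828 cells with a median of 2071.5 UMIs in aliquot 2. The 12 LT-HSC markers were all detected, with Hlf and Kit each in over 50% of cells, while Slamf1, which encodes the sorted antigen CD150, had a UMI in 2.70% of cells. Cd48, which encodes the antigen that LT-HSCs were sorted to lack, had a UMI in 1.88% of cells. Flt3, a gene of later progenitors, had one in 4.97%, a larger share than that of Slamf1. Cd48 and Flt3 reached 54.7 counts scaled to a total of 1e+06 (CPM) together, and the lymphoid markers 98.3 CPM. All 6 endothelial markers were detected, at 215 CPM together and in 24.9% of cells, led by Tie1 (635 UMIs), Emcn (304) and Pecam1 (221). Kdr had 50 UMIs, Plvap 5 and Cdh5 1. The part of endothelial cells in the values was not tested. Neutrophil granule genes made up at least 2% of the UMIs in 17 cells. Of the kept cells, 110 carried a barcode name present in both aliquots, which makes 55 shared names, and results were recomputed without them.

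Lmo2 was the most abundant member and Lyl1 the least. A UMI stands for 1 transcript molecule captured at its 3′ end, so levels of different genes were set side by side in CPM with no division by length. Over both aliquots Lmo2 stood at 586 CPM (95% Poisson interval 566 to 606), from 3321 UMIs. Its level was 647 CPM in aliquot 1 and 561 CPM in aliquot 2. Gata2 followed at 414 CPM (398 to 432), with 461 CPM in aliquot 1 and 396 CPM in aliquot 2. The ETS pair came next and its members could not be ordered, Fli1 at 210 CPM (199 to 223) and Erg at 209 CPM (198 to 222). By aliquot, Fli1 had 249 and 194 CPM in aliquots 1 and 2, and Erg had 233 and 200 CPM. Tal1 and Runx1 also had overlapping intervals, at 175 CPM (164 to 186) and 171 CPM (160 to 182). Tal1 had 169 CPM in aliquot 1 and 177 CPM in aliquot 2, and Runx1 had 194 CPM in aliquot 1 and 161 CPM in aliquot 2. Lyl1 was lowest, at 97.6 CPM (89.6 to 106), with 93.9 CPM in aliquot 1 and 99.1 CPM in aliquot 2. Of the helix-loop-helix pair Tal1 was the more abundant in both aliquots, and Lmo2 and Gata2 each stood above the other 5 members in both. All intervals cover counting error only.

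Between the aliquots, the level in aliquot 2 was from 0.780 (Fli1) to 1.06 (Lyl1) times that in aliquot 1. The 7 members summed to 1863 CPM (1828 to 1899), with 2047 CPM in aliquot 1 and 1788 CPM in aliquot 2. The summed level was also lower in deeper cells within an aliquot. In aliquot 2 it was 2000 CPM in cells with 1000 to under 2000 UMIs, 1764 CPM at 2000 to under 4000 UMIs and 1396 CPM at 4000 or more. The part of depth in the aliquot difference was not tested.

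**Figure D1:**
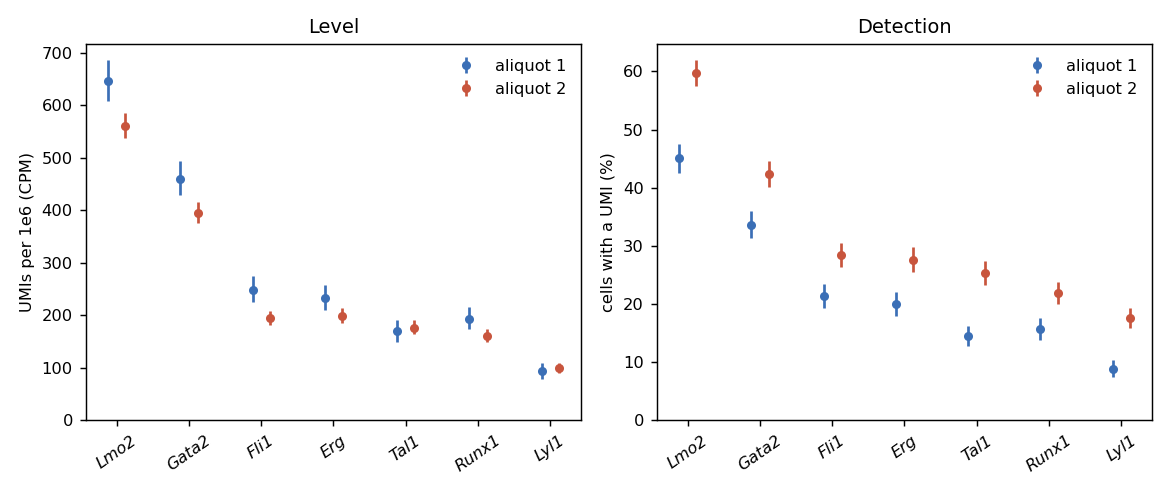
Level (left, CPM) and share of cells with at least 1 UMI (right, percent) of the 7 heptad members in aliquot 1 (blue, 1574 cells) and aliquot 2 (red, 1828 cells), with 95% counting intervals. Lmo2 and Gata2 lead in both aliquots, and every member is detected in a larger share of the deeper aliquot 2.

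At this depth no single member marked most of the cells as positive except Lmo2. A UMI of Lmo2 was found in 52.9% of cells (Clopper-Pearson 51.2 to 54.6%), of Gata2 in 38.3%, of Fli1 in 25.1%, of Erg in 24.1%, of Tal1 in 20.3%, of Runx1 in 19.0% and of Lyl1 in 13.5%. Taken as a group, at least 1 member was seen in 86.5% of cells. After thinning every cell to 500 UMIs the shares were 26.3% for Lmo2, 18.1% for Gata2, 10.3% for Erg, 9.70% for Fli1, 8.35% for Tal1, 7.58% for Runx1 and 4.26% for Lyl1. The order of Erg and Fli1 differs between the thinned and unthinned shares, so none is read from them. Each member was in fewer cells than an even spread of its UMIs would give, from 0.794 times the Poisson number for Runx1 to 0.926 times for Lyl1. Single cells held up to 13 UMIs of Erg, 11 of Gata2, 10 of Lmo2 and 10 of Runx1.

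The 17 cells rich in neutrophil granule transcripts were read as cells unlike the sorted stem cells. Whether each member is silent in such cells is not known from these data. Their median was 2139 UMIs, against 1418.5 UMIs in all kept cells. Gata2, Tal1 and Lmo2 had 0 UMIs there, which allows a share of up to 17.6% and a level of up to 75.9 CPM by 3 counts over those cells. That limit is on cells with a UMI, not on cells that express the gene, and the exact 95% upper limits are 19.5% and 93.3 CPM. The Gata2, Tal1 and Lmo2 levels in all kept cells lie above both limits on the level. Lyl1 had 6 UMIs (152 CPM, 55.7 to 330), Fli1 had 6, Runx1 had 3 (75.9 CPM, 15.6 to 222) and Erg had 1. The interval in these cells holds the level of all kept cells for Lyl1, Fli1 and Runx1, and lies below it for Erg (25.3 CPM, 0.640 to 141). A UMI of Lyl1 was found in 35.3% of the 17 cells and of Fli1 in 29.4%, and after thinning in 5.88% and 11.8%. These shares are not below those of all kept cells. Whether these UMIs are expression by the granule-rich cells or free RNA was not tested. A single UMI of Lyl1 or Fli1 is thus read neither as a mark of a stem cell nor as sure expression by that cell. Runx1 was in 11.8% and Erg in 5.88% of the 17 cells before thinning. Barcodes under 200 UMIs held the members at 1913 CPM in aliquot 1 and 1811 CPM in aliquot 2, beside 2047 and 1788 CPM in the kept cells. The part of free RNA in the values was not tested.

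The positions of the members, read from the GENCODE vM21 annotation of GRCm38, are spread over 6 chromosomes. Gata2 lies at chr6:88193891-88207032 (+), Tal1 at chr4:115056426-115071755 (+), Lmo2 at chr2:103957986-103981878 (+) and Lyl1 at chr8:84701457-84704715 (+). Runx1 (chr16:92601466-92826149, −) and Erg (chr16:95359169-95586593, −) share chromosome 16, and Fli1 is at chr9:32422204-32542861 (−). Lyl1 overlaps Nfix on the opposite strand, sharing 4 exonic bases, and Runx1 shares 106 exonic bases with an antisense gene. The sources used here do not say whether counting used strand, so reads of such partners cannot be told apart from those of the member. Nfix had 1157 UMIs in the kept cells, and its ratios are given beside those of Lyl1.

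Promoter sequence was available for 5 of the 7 members, with 10 start sites in all, from the RefSeq promoter table of GRCm38.p6. Lmo2 and Fli1 have none there. Lyl1 and Erg are shown because they are the members that passed the fold in the cell comparisons that follow. Each line holds the 250 bases before a start, 5′ to 3′ on the gene's strand, with motif matches on either strand in capitals. The motifs searched were AGATAA for GATA factors, GGAAG for ETS factors, CAGNTG for E-box binders and TGTGGT for Runx factors. No matches overlap in the windows shown. The Lyl1 window is chr8:84701207-84701456 (+). The Erg windows are chr16:95586594-95586843, chr16:95530366-95530615 and chr16:95459349-95459598, all on the − strand.
Lyl1: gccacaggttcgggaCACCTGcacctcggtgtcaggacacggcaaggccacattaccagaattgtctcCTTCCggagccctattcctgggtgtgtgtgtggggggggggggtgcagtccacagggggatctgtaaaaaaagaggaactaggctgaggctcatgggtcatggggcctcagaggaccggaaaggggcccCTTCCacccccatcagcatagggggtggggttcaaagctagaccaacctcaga
Erg, outermost start: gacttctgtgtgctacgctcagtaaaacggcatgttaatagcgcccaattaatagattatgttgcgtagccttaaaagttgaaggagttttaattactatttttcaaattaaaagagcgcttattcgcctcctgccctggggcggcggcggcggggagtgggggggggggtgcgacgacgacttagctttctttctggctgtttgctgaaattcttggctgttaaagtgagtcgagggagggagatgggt
Erg, middle start: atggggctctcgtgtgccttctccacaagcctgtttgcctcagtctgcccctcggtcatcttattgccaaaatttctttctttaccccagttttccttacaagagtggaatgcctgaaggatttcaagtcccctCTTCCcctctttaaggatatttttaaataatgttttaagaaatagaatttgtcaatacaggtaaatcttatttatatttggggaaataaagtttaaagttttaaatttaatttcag
Erg, innermost start: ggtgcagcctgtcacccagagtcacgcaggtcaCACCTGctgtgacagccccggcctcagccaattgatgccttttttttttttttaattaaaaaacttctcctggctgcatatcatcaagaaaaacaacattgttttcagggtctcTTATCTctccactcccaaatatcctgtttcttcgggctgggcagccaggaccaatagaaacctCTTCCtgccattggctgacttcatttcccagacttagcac
The Lyl1 window has 2 ETS and 1 E-box match, the outermost Erg window none, the middle one an ETS match, and the innermost one a GATA, an ETS and an E-box match. Over 32851 promoters of this length, 9.99% hold the GATA letters, 64.1% the ETS letters, 44.8% the E-box letters and 14.0% the Runx letters. The 2 windows of Gata2 hold none of these letters, and a relation of the letters to the levels was not tested. Of the windows not shown, those of Tal1 hold 1 GATA and 1 ETS match, and 1 of the 2 of Runx1 holds an ETS and 2 E-box matches. The Runx letters are in none of the 10 windows. UMIs at the 3′ end do not show which start was used, and a match is a run of letters, not a bound site.

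Members were then counted in single cells. On average a cell had 1.93 members detected, and the number followed depth, with 1.3 at 500 to under 1000 UMIs, 1.88 at 1000 to under 2000, 2.60 at 2000 to under 4000 and 3.21 at 4000 or more. Expected values from each member's overall rate and the cell's UMIs were 1.19, 1.87, 2.67 and 3.87. The deepest 101 cells thus had fewer members than their depth gives, as the lower CPM in deep cells also shows. No member was detected in 458 cells, 1 in 940, 2 in 946, 3 in 628, 4 in 312, 5 in 101, 6 in 14 and all 7 in 3. If the members were spread independently of each other at these rates, 458.9, 940.3, 951.3, 628.8, 296.7, 100.5, 22.8 and 2.7 cells were expected. The rates give fewer members than observed in shallow cells and more in deep ones, so the closeness of these counts is not read as independence.

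**Figure D2:**
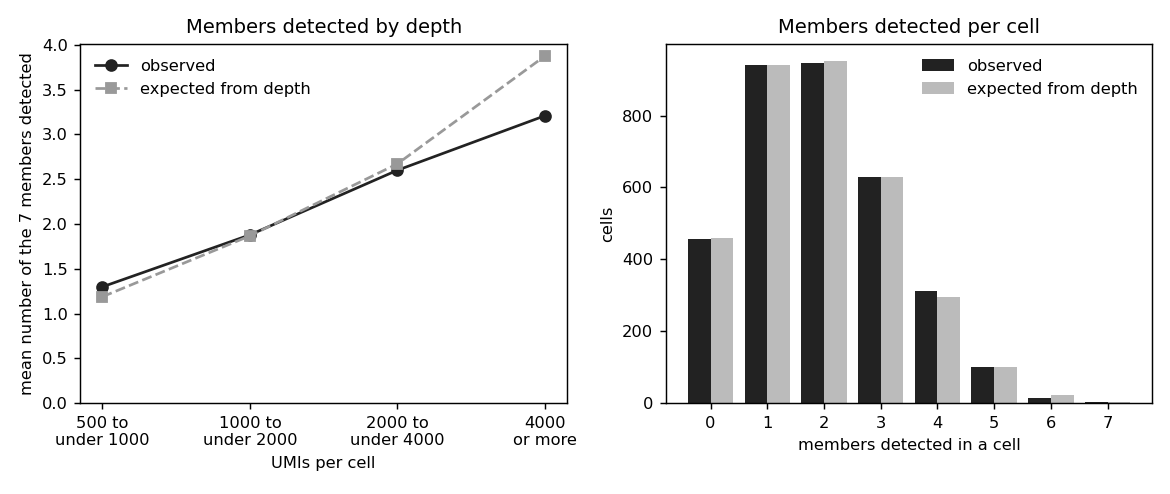
Left, mean number of heptad members detected against UMIs per cell, observed (black) and expected from depth with members independent (grey). Right, number of cells by how many of the 7 members were detected. With the expectation from each member's overall rate, shown here, bars lie close together from 0 to 5 members, and 14 cells against 22.8 expected had 6. That expectation misses the observed mean at both ends of depth, 1.3 against 1.19 expected in the shallowest cells and 3.21 against 3.87 in the deepest. With the share of each member in bins of depth instead, 387.3 cells with at least 4 members were expected and 430 observed.

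Cells with at least 4 members numbered 430, against 422.6 expected, a ratio of 1.02 (0.924 to 1.12). The ratio was 1.06 in aliquot 1 and 1.01 in aliquot 2. The 430 cells were deep, with a median of 2305.5 UMIs against 895.5 UMIs in cells with no member. With the share of each member in bins of depth as the expectation in place of its rate, 387.3 cells were expected and the ratio was 1.11 (1.01 to 1.22). The interval thus includes 1 with the expectation from rates and lies just above 1 with that from depth bins. The variance of the number of members per cell was 1.72, beside 1.74 expected from rates and 1.59 from depth bins. The bins follow the observed change with depth and the rates do not, so independence is not read from the ratio of 1.02.

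Pairs were counted in the same way. Of the 21 pairs, 20 had an interval that includes 1, the observed over expected ratio ran from 0.771 to 1.1, and the median was 1.01. None reached 1.2 times the expected number, where 2.31% of all pairings of a member with any feature did, 2.58% of those of Lyl1 and 5.38% of those of Runx1. The highest ratio was that of Runx1 and Fli1, 208 cells against 189 expected (1.1, 0.955 to 1.26), with 1.23 in aliquot 1 and 1.04 in aliquot 2. Erg and Fli1, the ETS pair, met in 221 cells against 239 expected (0.926, 0.808 to 1.06), and Tal1 and Lyl1 met in 121 against 117 (1.04, 0.860 to 1.24). Of the pairs of the LIM-bridged complex, Tal1 and Lmo2 met in 433 cells against 416 expected, and Gata2 and Lmo2 in 783 against 761. Lmo2 and Lyl1 met in 277 against 281 (0.986), Gata2 and Tal1 in 286 against 305 (0.937) and Gata2 and Lyl1 in 188 against 206 (0.911), so the pairs of this complex lay on both sides of 1. The exception was Lyl1 and Runx1, with 82 cells against 106 expected, a ratio of 0.771 (0.613 to 0.957) that was below 1 in both aliquots (0.736 and 0.782). That pair was the only 1 of the 21 at or below 1/1.2, where 9.91% of all pairings of a member with a feature lie, 19.7% of those of Lyl1 and 8.64% of those of Runx1. After thinning to 500 UMIs the same pair met in 12 cells against 11 expected. These pair ratios use the expectation from rates. With that from depth bins the 21 ratios ran from 0.815 to 1.16, so that of Lyl1 and Runx1 was nearer to 1. No interval was computed there, so the pair is not read as apart from the others.

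**Figure D3:**
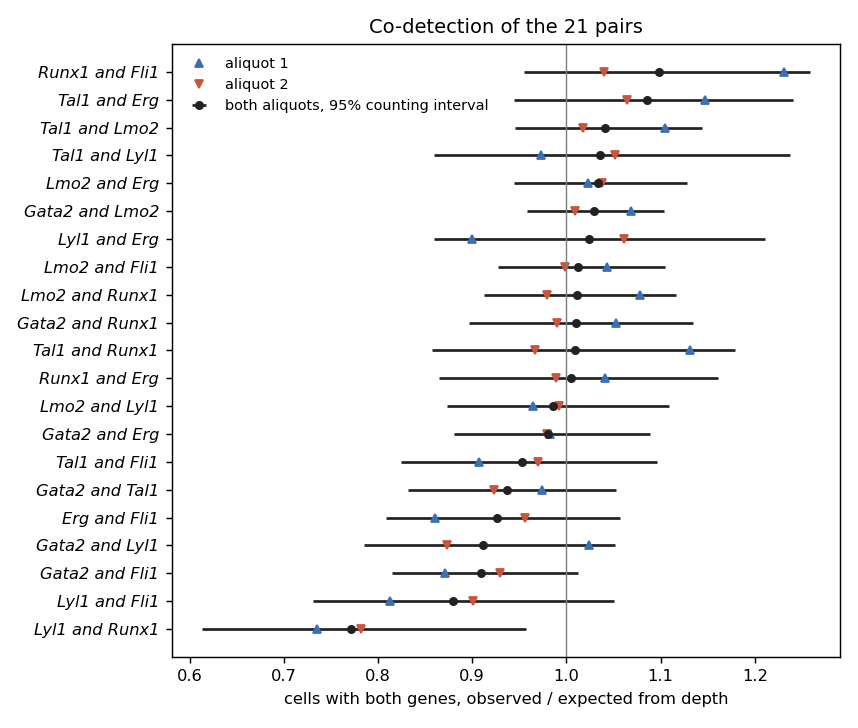
Cells with both genes of a pair, observed over expected from depth, for the 21 pairs of heptad members (black points with 95% counting intervals; blue and red triangles for aliquots 1 and 2). With the expectation from rates shown here, 20 of 21 intervals include 1, and Lyl1 with Runx1 at 0.771 is the exception. With that from depth bins the 21 ratios run from 0.815 to 1.16.

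Cells were next divided by single genes, and a member was counted as past the fold when its CPM was at least 1.5 times higher or lower than in all other cells, in the same direction in both aliquots. Cells with a Gata1 or Klf1 UMI, the erythroid and megakaryocytic regulators, numbered 151 with a median of 2340 UMIs, against 3251 other cells with a median of 1379. Erg, an ETS factor of stem cells, was the member lower by more than the fold. It stood at 114 CPM (82.3 to 154) in the Gata1 or Klf1 cells and at 216 CPM (204 to 229) in the others, a ratio of 0.528 (0.379 to 0.719). By aliquot, Erg had 186 and 93.9 CPM in the Gata1 or Klf1 cells of aliquots 1 and 2, and 236 and 208 CPM in the other cells. Both aliquots had the lower value in Gata1 or Klf1 cells, but the ratio of 0.790 in aliquot 1 does not reach the fold by itself, and that of 0.452 in aliquot 2 does. With 1 of 7 members past the fold, lower, the count is read against 13.5% of 6934 features lower, 10.7% higher and 24.1% in either direction.

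The Erg level was 216 CPM in cells with 0 Gata1 or Klf1 UMIs, 134 CPM (91.3 to 191) in cells with 1 and 80.1 CPM (40.0 to 143) in cells with 2 or more, where the intervals of the last 2 sets overlap. Its paralog Fli1 stood at 245 CPM in the Gata1 or Klf1 cells and 208 CPM in the others (1.18, 0.938 to 1.46). Erg made up 31.8% (24.0 to 40.5%) of the summed Erg and Fli1 UMIs in Gata1 or Klf1 cells and 51.0% (48.9 to 53.0%) in the others. Gata2 stood higher in the same cells, at 524 CPM against 407 CPM, a ratio of 1.29 (1.11 to 1.49) that was 1.14 and 1.36 in aliquots 1 and 2. At 0, 1 and 2 or more Gata1 or Klf1 UMIs it had 407, 507 (420 to 608) and 553 CPM (436 to 693), so the last step is within the intervals, and it stayed short of the fold. The median depth of these 3 sets was 1379, 2061 and 3139 UMIs. Lyl1 had a ratio of 0.682 (0.437 to 1.02), with 0.786 in aliquot 1 and 0.650, past the fold, in aliquot 2, beside a ratio of 1.03 for the overlapping gene Nfix. Lmo2 (0.884), Runx1 (0.902) and Tal1 (0.946) lay within 1.5-fold, and their intervals include 1.

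The Gata1 or Klf1 cells were also deeper. When cells were compared within aliquot and 10 bins of depth, Erg stood at 0.636 and Gata2 at 1.44, while Lmo2 moved to 1.08. Erg was detected in 22.5% of Gata1 or Klf1 cells and 24.1% of other cells, and after thinning in 4.64% and 10.6%. 35 of the 151 cells were also in the G2/M class, and outside it the Erg ratio was 0.497 (0.334 to 0.714). Without the cells whose barcode name occurs in both aliquots it was 0.531. LT-HSC markers were at 1473 CPM in these cells and 3079 CPM in the others, erythroid markers at 2970 and 1641 CPM and megakaryocyte markers at 2334 and 1492 CPM. The erythroid list includes Gata1 and Klf1, and the part of these lists in the Erg value was not tested.

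**Figure D4:**
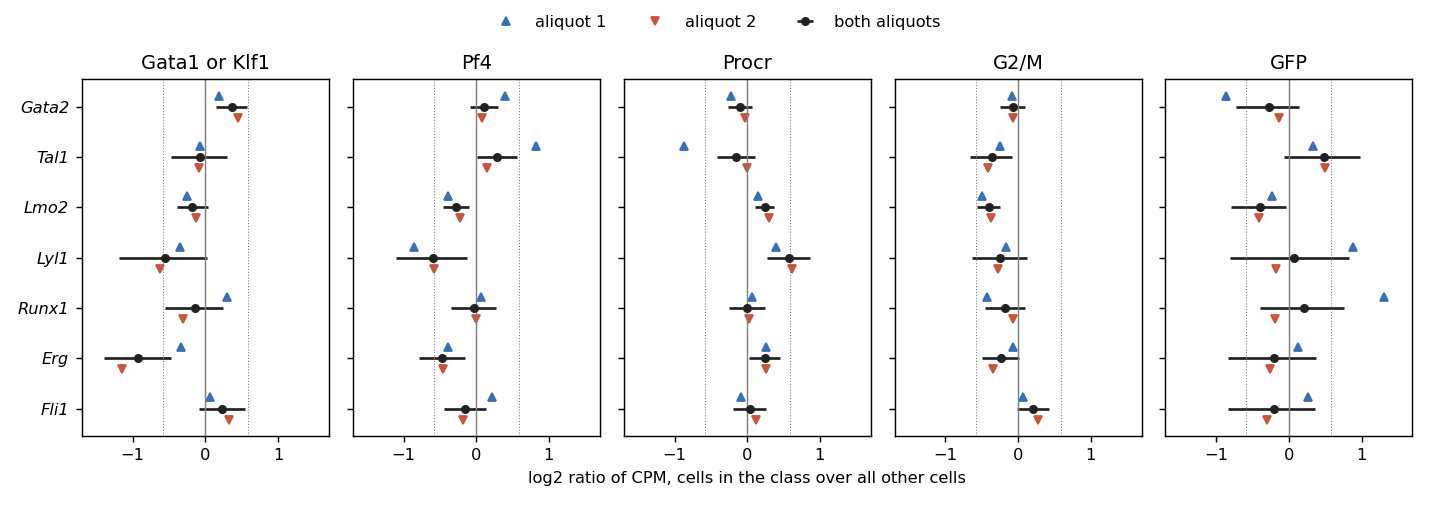
Log2 ratio of CPM for the 7 members, cells in the class over all other cells, in each of 5 divisions of the cells (black, both aliquots with 95% counting intervals; triangles, each aliquot). Dotted lines mark 1.5-fold: Erg in the Gata1 or Klf1 division and Lyl1 in the Pf4 division lie beyond it.

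Cells with a UMI of Pf4, a platelet factor gene of megakaryocytes, numbered 238 (median 2169.5 UMIs, against 1365.5 in 3164 other cells). Here Lyl1 was the member past the fold, at 66.7 CPM (47.4 to 91.2) against 101 CPM (92.6 to 110), a ratio of 0.660 (0.464 to 0.915). The Lyl1 level was 53.4 and 69.3 CPM in the Pf4 cells of aliquots 1 and 2, and 96.3 and 103 CPM in the others. Both aliquots thus had the lower value in Pf4 cells, although the aliquot 2 ratio of 0.671 falls just short of the fold. With 1 of 7 members past the fold, lower, the background is 11% of 8472 features lower, 6.44% higher and 17.4% in either direction. Lyl1 ran from 101 CPM at 0 Pf4 UMIs to 90.3 CPM at 1 and 38.0 CPM at 2 or more. It made up 24.2% (17.8 to 31.6%) of the summed Lyl1 and Tal1 UMIs in Pf4 cells and 37.2% (34.6 to 39.8%) in the others. Its overlapping gene Nfix had a ratio of 0.850 (0.687 to 1.04).

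Erg was again lower, at 156 CPM in Pf4 cells and 216 CPM in the others (0.722, 0.577 to 0.895), short of the fold. It had 216, 187 (143 to 241) and 118 CPM (79.9 to 167) at 0, 1 and 2 or more Pf4 UMIs, and the last 2 intervals overlap. Lmo2 had a ratio of 0.826 (0.729 to 0.932), and Tal1 a ratio of 1.22 (1.00 to 1.48) that was 1.78 in aliquot 1 and 1.11 in aliquot 2. Gata2 (1.08), Fli1 (0.902) and Runx1 (0.981) had intervals including 1. The Lyl1 value did not keep to the fold when cells were compared within depth bins (0.717), when every cell had equal weight (0.693) among cells with no Gata1 or Klf1 UMI (0.706, 0.483 to 1.00) or without the shared barcode names (0.679). Erg moved to 0.836 and Lmo2 to 0.966 in the depth bins. After thinning, Lyl1 was in 2.94% of Pf4 cells and 4.36% of others, against 13.0% and 13.6% before. Megakaryocyte markers, Pf4 among them, were at 3413 CPM in Pf4 cells and 1332 CPM in the others, and LT-HSC markers at 2253 and 3058 CPM, and their part in these values was not tested.

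**Figure D5:**
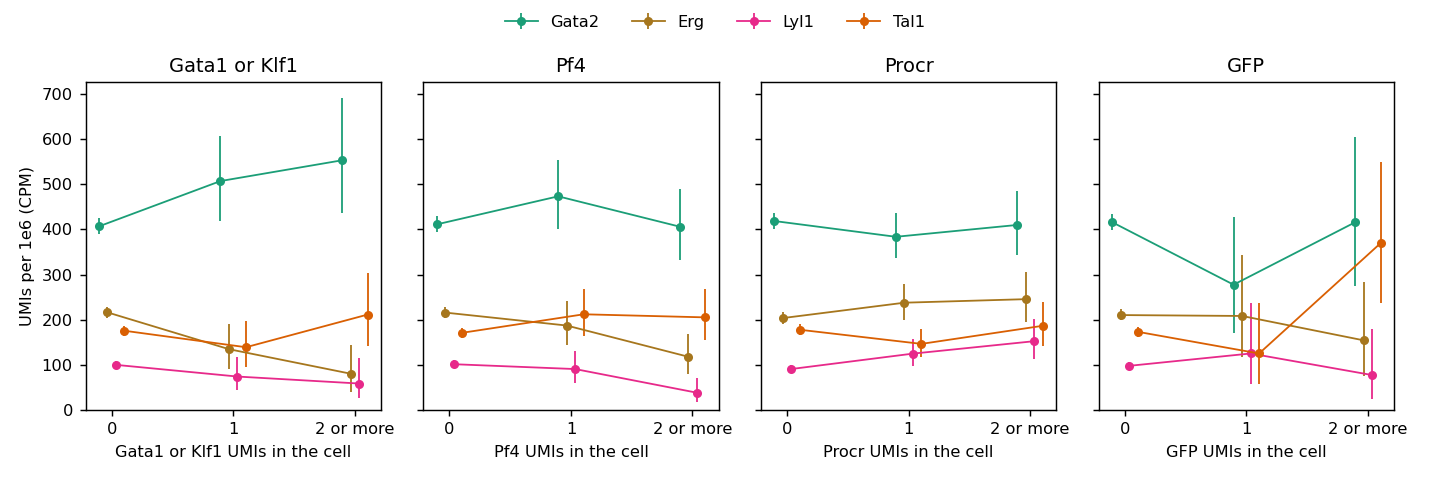
Level of Gata2, Erg, Lyl1 and Tal1 (CPM, with 95% Poisson intervals) in cells with 0, 1 and 2 or more UMIs of Gata1 or Klf1, Pf4, Procr or GFP. Erg runs from 216 to 80.1 CPM with Gata1 or Klf1 UMIs and Lyl1 from 101 to 38.0 CPM with Pf4 UMIs. In both, the intervals at 1 and at 2 or more UMIs overlap, and the sets differ in depth.

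Procr encodes EPCR, a surface protein of blood stem cells, and a UMI of it was found in 540 cells (median 1645.5 UMIs, against 1374.5 in 2862 other cells). No member passed the fold, where 6.96% of 9797 features were higher, 8.14% lower and 15.1% past it in either direction. Lyl1 came nearest, at 134 CPM (112 to 160) against 90.4 CPM (82.1 to 99.4), a ratio of 1.48 (1.21 to 1.82). Lyl1 had 119 and 138 CPM in the Procr cells of aliquots 1 and 2, and 90.5 and 90.4 CPM in the other cells. Its level was 90.4, 125 (98.0 to 156) and 152 CPM (113 to 201) at 0, 1 and 2 or more Procr UMIs. The last 2 intervals overlap, and the median depth of these sets was 1374.5, 1515 and 1836 UMIs. The Lyl1 share of the Lyl1 and Tal1 UMIs was 45.6% against 33.8%. Nfix had a ratio of 1.11 (0.946 to 1.29) there. Lyl1 was in 19.1% of Procr cells and 12.5% of others, and in 5.56% and 4.02% after thinning, and within depth bins its ratio was 1.40. It crossed the fold without the shared barcode names (1.51) and in aliquot 2 alone (1.53, against 1.31 in aliquot 1). It was lower with equal weight per cell (1.42), with no UMI minimum (1.39) and when cells were divided after thinning (1.24). LT-HSC markers, which include Procr, were at 4542 CPM in Procr cells and 2669 CPM in the others, and G2/M genes at 1431 and 2633 CPM, and their part was not tested. Erg stood at 1.18 (1.02 to 1.37), with 1.2 in each aliquot, and Lmo2 at 1.18 (1.08 to 1.29). The thinned share of Lmo2 went the other way, 24.4% in Procr cells and 26.6% in others. Tal1 had a ratio of 0.902, with 0.548 in aliquot 1 and 0.999 in aliquot 2. Gata2 (0.938), Fli1 (1.02) and Runx1 (1.00) had intervals including 1.

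The G2/M class took cells with at least 0.5% of their UMIs, and at least 3 UMIs, from 44 genes of late cell cycle. It is a range on a score rather than a cell type, and 87 of the cells lie within 0.1 percentage points of the limit. The class held 367 cells (median 1894 UMIs, against 1344 in 3035 others), and no member passed the fold, where 10.4% of 9387 features were higher, 15.9% lower and 26.3% past it in either direction. Lmo2 was at 459 CPM in G2/M cells and 607 CPM in others (0.755, 0.676 to 0.841), with 482 and 448 CPM in the G2/M cells of aliquots 1 and 2 and 677 and 580 CPM in the others. Tal1 stood at 140 CPM against 180 CPM (0.777, 0.634 to 0.945), and Fli1 at 238 CPM against 206 CPM (1.16, 0.987 to 1.35). The remaining members had ratios from 0.843 (Lyl1) to 0.953 (Gata2). Within depth bins Lmo2 moved to 0.927 and Tal1 to 0.838, Gata2 (1.1) and Erg (1.04, beside 0.849 without the bins) passed to the other side of 1, and Fli1 reached 1.35. Neutrophil granule genes were at 8800 CPM in G2/M cells and 740 CPM in others, and without the 17 neutrophil granule cells Lmo2 was at 0.783.

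Reporter cells are the cells of interest to the study. Taken as all cells with at least 1 GFP UMI, they stayed within the fold for every member over both aliquots. Cells with at least 2 GFP UMIs, given further on, did not for Tal1 and Lmo2. A GFP UMI was found in 71 cells, 23 and 48 in aliquots 1 and 2, with a median of 1702 UMIs against 1412 in 3331 others. The labels state 46 such cells after the authors' own processing. Of the 71 cells, 41 had a single GFP UMI, and the part of free RNA or doublets in them was not tested. None of the 7 members passed the fold in either direction, where 12.1% of 3428 features were higher, 8.9% lower and 21% past it in either direction. The members summed to 1693 CPM in reporter cells and 1867 CPM in others. Lmo2 was at 445 CPM (341 to 572) against 589 CPM (569 to 610), a ratio of 0.755 (0.576 to 0.973), with 553 and 423 CPM in the reporter cells of aliquots 1 and 2 and 648 and 565 CPM in the others. Tal1 was at 241 CPM (166 to 338) against 173 CPM (162 to 184), a ratio of 1.39 (0.953 to 1.97) from 33 UMIs in reporter cells. Without the reporter cell richest in it, the Tal1 ratio was 1.18. Gata2 (0.824), Erg (0.869), Fli1 (0.865), Lyl1 (1.05) and Runx1 (1.16) had intervals including 1. Aliquot 1, with 23 reporter cells, stood apart for Runx1 (2.46, against 0.872 in aliquot 2), Lyl1 (1.83, against 0.886) and Gata2 (0.550, against 0.911).

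In the 30 cells with at least 2 GFP UMIs, 8 in aliquot 1 and 22 in aliquot 2, Tal1 was past the fold upward and Lmo2 downward. All features gave 17.2% of 1486 higher, 9.76% lower and 27% past the fold in either direction, so 2 of the 6 members tested is near the background, and Lyl1 had too few UMIs for the count. Tal1 had 24 UMIs there, 370 CPM (237 to 550), against 125 CPM (57.1 to 237) in cells with 1 GFP UMI and 173 CPM in cells with none. The Tal1 ratio of these 30 cells to all others was 2.14 (1.37 to 3.21), with 2.57 in aliquot 1 from 4 UMIs and 2.06 in aliquot 2, and 1.73 without the cell richest in it. The Lmo2 ratio was 0.602 (0.381 to 0.905), with 0.832 in aliquot 1 from 5 UMIs, short of the fold, and 0.573 in aliquot 2. The order over 0, 1 and 2 or more GFP UMIs was not monotonic for Tal1. Lmo2 stood at 589, 527 (373 to 724) and 354 CPM (225 to 532). Its interval at 1 GFP UMI holds the level at 0 and overlaps that at 2 or more, so no steady fall is read. With 71 cells the intervals stay wide, 0.560 to 1.29 for the ratio of Erg and 0.569 to 1.77 for that of Lyl1.

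Cofactors and related factors were described from a list of 26 genes. Among those with most UMIs were Meis1 (1913 UMIs), Cbfa2t3 (1811) and Myb (1598), and these stayed within 1.5-fold in every division. In the Gata1 or Klf1 division 4 of 24 tested members were higher and 4 lower, beside 10.7% and 13.5% of all features. Among the higher ones were the Gata1-linked repressor gene Gfi1b (2.15, 1.37 to 3.26), the Gata cofactor gene Zfpm1 (1.77) and Runx3 (1.72). Gata3 (0.391, 0.212 to 0.662), Runx2 (0.581), Lmo4 (0.585) and Hhex (0.589) were lower. Of the paralogs of heptad members, Runx3 and Runx2 and the pair Gata2 and Gata3 lay on opposite sides of 1 there. With 4 of 24 in each direction the counts are not far from those shares, and nothing particular to the list is read from them. The median log2 ratio of the list was -0.14, against 0.03 for all features tested.

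For the divisions that follow, the shares of all features to set beside the counts are 6.44% higher and 11% lower in Pf4 cells, 6.96% and 8.14% in Procr cells, 10.4% and 15.9% in G2/M cells, and 12.1% and 8.9% in reporter cells. In the Pf4 division, 3 of 25 cofactor genes were higher, among them Gata1 (3.43) and Gfi1b (2.24), and 3 were lower, namely Ets1 (0.325), Runx2 (0.575) and Ikzf1 (0.590). Procr cells had 1 higher, Ets1 at 1.61, and 2 lower, Gata1 at 0.271 and Runx3 at 0.554, of 25. In G2/M cells Gata1 was higher (2.08), and Gfi1b (0.514) and Gata3 (0.616) were lower, of 25 tested. In reporter cells 0 of 21 were higher and 3 lower, Nfe2 at 0.491 (0.244 to 0.882), Tcf4 at 0.629 (0.351 to 1.04) and Runx3 at 0.0961 (0.00243 to 0.538), the last from 1 UMI. The median log2 ratios of the list were -0.08 in Pf4 cells, 0.01 in Procr cells, -0.09 in G2/M cells and 0.08 in reporter cells, beside -0.01, 0.0034, -0.04 and 0.10 for all features tested.

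Genes described as targets of the heptad were taken as 16 genes, among which Hlf (4144 UMIs), Kit (3848) and Angpt1 (2850) were abundant. Hlf, a stem cell transcription factor gene, stood at 0.265 (0.208 to 0.334) in Gata1 or Klf1 cells, 0.587 in Pf4 cells, 1.56 in Procr cells, 0.488 in G2/M cells and 0.976 in reporter cells. Kit, the stem cell factor receptor gene, was at 0.575 (0.431 to 0.751) in reporter cells and within 1.5-fold in the other 4 divisions, and Angpt1, a secreted ligand gene, stayed within 1.5-fold throughout. In Gata1 or Klf1 cells 3 of 14 target genes were higher and 5 lower, in Pf4 cells 2 and 3 of 15, in Procr cells 3 and 2 of 14, in G2/M cells 3 and 7 of 15, and in reporter cells 1 and 2 of 13. Beside these stand, for all features, 10.7% higher and 13.5% lower in Gata1 or Klf1 cells and the shares given for the cofactors in the other 4 divisions, and with 13 to 15 genes tested nothing particular to the list is read from the counts. The medians of the target list were -0.35, -0.21, 0.14, -0.49 and -0.01 on the log2 scale in these 5 divisions, beside -0.15, -0.15, 0.03, -0.24 and -0.20 for the heptad.

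The genes whose cell-to-cell pattern was most like the summed members were sought among 3790 other genes with at least 300 UMIs. Likeness was the lower of the Pearson correlations in the 2 aliquots, over 1574 and 1828 cells. They were taken on counts less their expectation at the cell's UMIs, over the root of that expectation. A level in CPM that itself changes with depth is not removed in this way, and its part was not tested. Txnip came first (0.147 and 0.157), then B2m (0.113 and 0.101), Hlf (0.0987 and 0.101), Egr1 (0.127 and 0.0964) and Mllt3 (0.0844 and 0.0920). The cells share libraries and these values are weak, so in counts this sparse they are a description only.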

How the data were processed

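Raw UMI counts per feature and barcode, whole numbers, were deposited by the authors with no normalization, and expression was measured in 2 aliquots of 1 pool. Named in the submitters' processing notes, without roles, are the build GRCm38, RSEM 1.3.0, SAMtools 1.3.1 and Bowtie 1.1.1, and the labels say reporter reads were found with the cassette sequence. How near-identical copies were counted is not stated. Cells needed 500 UMIs and no more than 20% mitochondrial UMIs, and doublets were not removed. Counts were summed over cells and scaled to 1e+06. Ratios have exact conditional binomial intervals, levels exact Poisson intervals and shares Clopper-Pearson intervals, all at 95% and covering counting error only, and a count of 0 is given the limit of 3 counts. A feature was compared when it had, or was expected to have, 10 UMIs in the smaller set of cells, and genes that define a division were left out of it. Expected co-detection used a rate per gene and aliquot times the UMIs of the cell, and thinning to 500 UMIs used 1 draw with seed 20. All members, the split genes only as such, the 4 partner genes with most UMIs and those past the fold, the 4 target genes with most UMIs and the 5 most alike genes were named. Some genes of these lists are not reported here, and the list counts include them. Members and lists were chosen with earlier results of these data known. Scripts used matplotlib 3.10.9, pandas 2.3.3, scipy 1.17.1, numpy 2.4.6 and Python 3.11.15 and were checked on simulated data. Alternatives varied the UMI and mitochondrial limits, the fold, weighting, depth matching, cell exclusions and the aliquots. The aliquots are not replicates of a condition.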

Additional observations from a re-analysis of the deposited data

How the results depend on the processing

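No paired analysis was possible because the design has 1 pool and no groups to compare. With 1 aliquot left out in turn, the count of members past the fold ranged from 0 to 2 for the Gata1 or Klf1 division, from 0 to 1 for Pf4, was 1 for Procr and ranged from 0 to 2 for reporter cells, beside 1, 1, 0 and 0. The members changed with the aliquot. In the Gata1 or Klf1 division Erg and Lyl1 passed without aliquot 1 and no member without aliquot 2. In the Pf4 division no member passed without aliquot 1 (Lyl1 at 0.671), and without aliquot 2 Tal1 passed instead (1.78, higher), with Lyl1 at 0.554 but under the UMI minimum for a count. For Procr it was Lyl1 (1.53) without aliquot 1 and Tal1, lower (0.548), without aliquot 2. Without aliquot 2 reporter cells had Runx1 higher (2.46) and Gata2 lower (0.550). Pairs at 1.2 times the expected number ranged from 0 to 1 and the summed level from 1788 to 2047 CPM. In the Gata1 or Klf1 division the count was 2 at 10% mitochondrial UMIs and with equal weight per cell (Lyl1 joining Erg), 3 at a looser fold limit (between 1 and 1.5), 0 at a fold of 2 and 0 when cells were divided after thinning to 500 UMIs, where Erg was at 0.484 but under the UMI minimum for a count. In the Pf4 division it was 0 with equal weight per cell, with depth bins, at a fold of 2, without cells carrying a barcode name shared by the aliquots and without Gata1 or Klf1 cells, and 2 at the looser fold (Erg joining Lyl1). Divided after thinning, it stayed at 1 but with Erg (0.470) in place of Lyl1 (0.747), while Gata2 at 0.653 and Fli1 at 0.411 missed the UMI minimum or the same direction in both aliquots. In the Procr division it was 1 with a minimum of 1000 UMIs, at the looser fold, without shared barcode names (Lyl1 in each) and after division on thinned counts (Tal1, at 0.420). On those thinned counts Lmo2 passed to the other side of 1 (0.849), and Runx1 stood at 1.49, short of the fold. In G2/M cells it was 2 at the looser fold, and in reporter cells 2 at the looser fold and 2 with at least 2 GFP UMIs. With the limit of the G2/M class at 0.25% or 1% of UMIs no member passed the fold, but some ratios moved. At these 2 limits Gata2 had 0.841 and 1.21, Erg 0.673 and 1.00, Lmo2 0.681 and 0.870 and Fli1 0.983 and 1.17. Those of Tal1, Lyl1 and Runx1 stayed inside the interval of the reported value. The alternative without shared barcode names was chosen after seeing the data, and the causes were not tested. Neither ratio past the fold changed direction. Of the single ratios, 388 stayed inside the interval of the reported value and 32 left it. Cells with at least 4 members stayed within 1.00 to 1.11 times the expected number under the alternatives run, and with the expectation from depth bins, at 1.11, the interval (1.01 to 1.22) no longer included 1. Depth limits Lyl1, with 553 UMIs, and reporter cells, of which there are 71.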
